A study of Mus musculus with 18 samples.

Results

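Cytosolic ribosomal protein genes were followed across the cerebella of mice that differ in apolipoprotein D (ApoD), a secreted lipid-binding lipocalin, 6 h after an injection of paraquat or saline. Paraquat is a herbicide that cycles electrons to oxygen and generates superoxide. The genes were taken by symbol: Rpl or Rps followed by a digit, together with Rpsa, Rplp0, Rplp1 and Rplp2, leaving out the S6 kinases and symbols that end as pseudogenes. Probe sets that list exactly 1 gene symbol represented 48 such genes among 12393 genes on the array, 26 of the large and 22 of the small ribosomal subunit. Of these, 45 passed a filter on low values, and Rpl14, Rpl39l and Rpl3l did not. Rplp1 had no probe set of its own and was not a member.

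The arrays came from adult male mice aged 80 ± 5 days of 3 genotypes, which were wild-type, ApoD knock-out and transgenic for human ApoD over-expressed in neurons. Each mouse received 1 intraperitoneal injection, either paraquat at 30 mg/kg in 200 µl of sterile saline or saline alone. Each of the 6 groups of genotype and treatment had 9 mice, and RNA of 3 mice was pooled for each of its 3 arrays, so that n = 3 pools throughout and every SD or SE is over pools. The promoter that drives the transgene, the mouse strain and the exons removed in the knock-out are not given in the sources used here. Titles name paraquat on the arrays of the paraquat groups and no treatment on the others, which were taken as saline from the protocol.

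Ribosomal proteins and ribosomal RNA together build the particle that translates every messenger RNA. Most of these genes are transcribed at a high level in all cells, and many of their mRNAs start with a run of pyrimidines, the 5′ terminal oligopyrimidine (TOP) motif, through which mTORC1 signalling controls their translation. In neurons, ribosomes in dendrites and axons supply part of the local protein synthesis. A few members are paralogs that replace or accompany a core protein, such as Rpl22l1 for Rpl22.

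The promoters of the members that differed between genotypes, and of 4 members with values in the opposite direction, are printed because the TOP motif lies at the start of transcription. The RefSeq promoter table (GRCm38.p6) held 42 of the 48 members. Each line below runs 5′ to 3′ on the strand of the gene, from 60 bases before the annotated start through its first 10 bases. Capitals mark runs of at least 8 C or T and the sequence CCGGAAG or its reverse complement CTTCCGG, which ETS factors are known to bind.
Rpl27a, chr7:109519135-109519204, plus strand: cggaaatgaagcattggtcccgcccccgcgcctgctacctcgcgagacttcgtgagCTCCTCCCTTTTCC
Rpl22l1, chr3:28805448-28805517, plus strand: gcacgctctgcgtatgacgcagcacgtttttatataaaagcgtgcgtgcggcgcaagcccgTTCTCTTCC
Rpl37, chr15:5116553-5116622, plus strand: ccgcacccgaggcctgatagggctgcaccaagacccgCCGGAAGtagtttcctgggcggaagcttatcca
Rpl4, chr9:64173327-64173396, plus strand: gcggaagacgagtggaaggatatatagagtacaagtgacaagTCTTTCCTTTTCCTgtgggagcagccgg
Rps3, chr7:99483700-99483769, minus strand: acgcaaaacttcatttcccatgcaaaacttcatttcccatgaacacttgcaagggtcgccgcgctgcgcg
Rplp2, chr7:141447591-141447660, plus strand: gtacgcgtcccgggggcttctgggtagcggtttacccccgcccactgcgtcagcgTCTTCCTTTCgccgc
Rps9, chr7:3703981-3704050, plus strand: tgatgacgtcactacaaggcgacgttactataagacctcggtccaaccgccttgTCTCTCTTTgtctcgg
Rps10, chr17:27635235-27635304, minus strand: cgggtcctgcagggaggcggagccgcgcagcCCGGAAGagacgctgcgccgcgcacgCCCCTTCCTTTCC

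A pyrimidine run of at least 8 bases lay within the 20 bases before and the 10 after the start in 18 of 42 members (42.9%), against 12.4% of 27025 genes. CCGGAAG or CTTCCGG occurred on either strand of the 300-base window in 21 members (50%), against 9.12% of all genes. The sequence AAGATGGC, which the factor YY1 is known to bind, occurred in 3 members (7.14%) against 2.88%, and TATAAA in 5 (11.9%) against 14.2%. Matches are letters in a window and not binding sites, and an annotated start may lie some bases from the start used in cerebellum. Both the members lower in transgenic mice and those with higher values included windows with a pyrimidine run.

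The tissue and the arrays set limits on small differences. All 5 granule neuron markers and 4 of 5 Purkinje neuron markers were measured, with list means of 11.25 to 11.80 and 12.77 to 13.05 over the 18 arrays. Apod read 12.38 to 12.54 in wild-type saline, 8.22 to 8.50 in knock-out saline and 9.16 to 9.83 in knock-out paraquat on the log2 scale. It read 12.53 to 12.76 in wild-type paraquat, 12.25 to 12.35 in transgenic saline and 12.13 to 12.32 in transgenic paraquat. Transgenic values were thus not above wild-type. Whether this mouse probe set reads the human transcript is not known here, so the transgene was not checked. The second knock-out paraquat array stood apart, with a median log2 value of 6.98 against at least 7.10 elsewhere, and 24 of 45 members (53.3%) had their lowest value there, as did 50.5% of all genes. The 18S ribosomal RNA control read 6.15 to 6.94 on the second and the third array of both transgenic groups and at least 7.30 on all other arrays. In a bulk tissue, fewer cells of a type and less RNA per cell cannot be told apart.

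**Figure D1:**
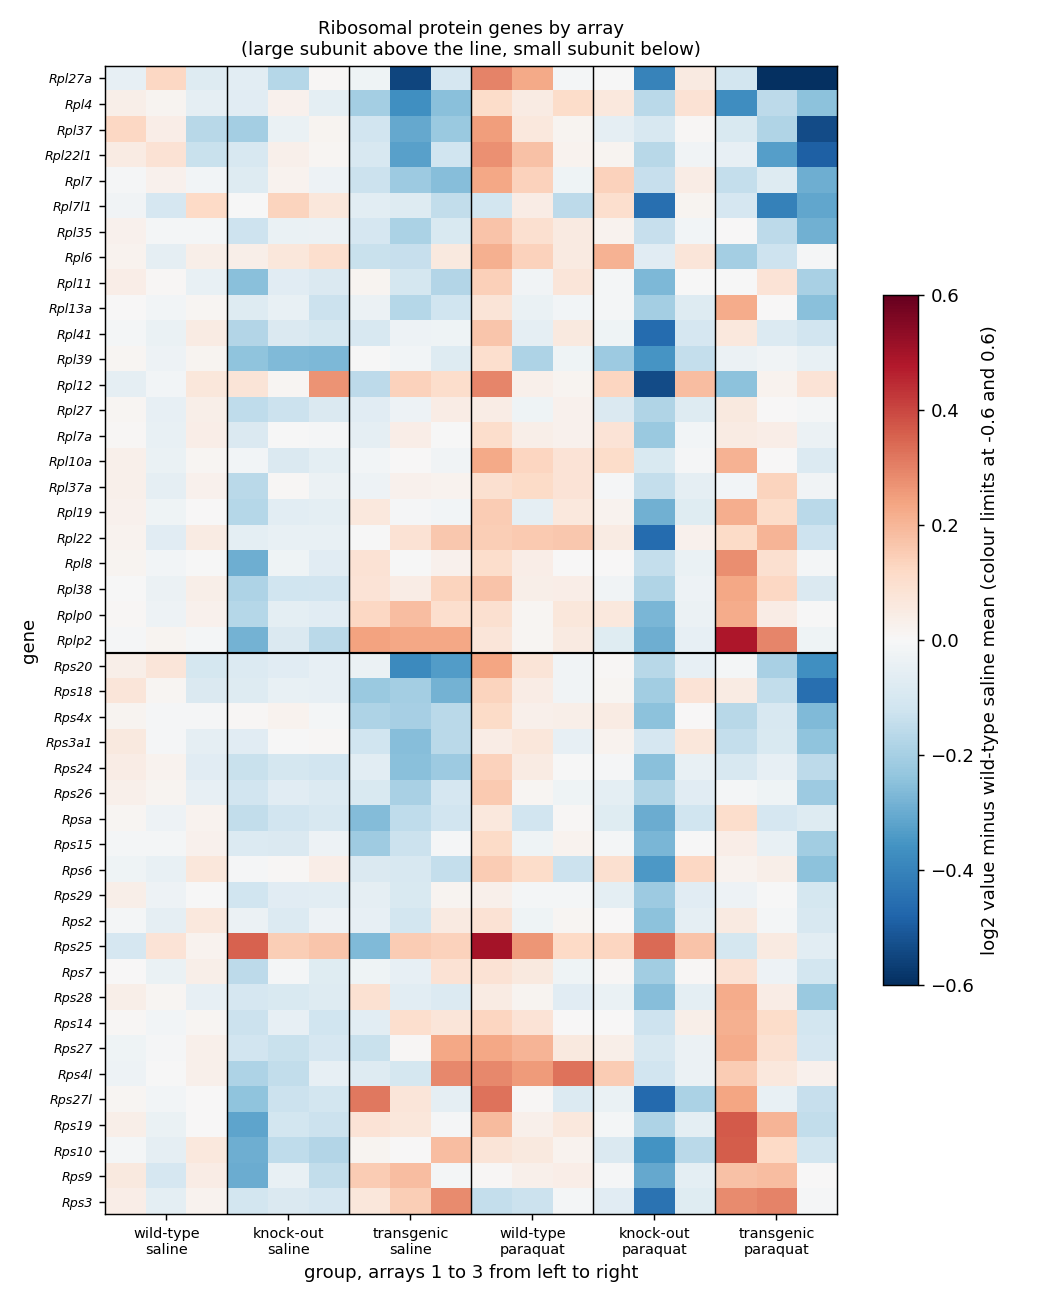
Deviation of the 45 members that passed the filter from their wild-type saline mean (log2, colour, limited at -0.6 and 0.6), by gene (rows) and array (columns, 3 per group). The second knock-out paraquat array is low for most members, and Rpl27a, Rpl4, Rpl37 and Rpl22l1 are low on transgenic arrays.

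Members varied little. The SD over the 18 arrays was 0.12 for the median member and 0.19 for the median gene of the 8320 tested. Members were also brighter, with means above 11 on the log2 scale for 34 of 45 (75.6%), against 7.54% of all genes. Their spread was not compared with that of genes of like level. Rps29, a zinc-binding protein of the small subunit, had an SD of 0.06, and Rpl27, Rpl7a and Rps2 had SDs of 0.07, 0.07 and 0.08. Rpl27a, a large subunit protein, had the highest SD at 0.32, followed by the stalk protein Rplp2 at 0.20 and by Rps27l and Rpl12 at 0.19 each. A 95% confidence interval of a comparison of 2 groups extended 0.22 to either side for the median member and 0.27 for the median gene.

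In wild-type mice, no ribosomal protein gene passed the test for paraquat against saline. Across all genes 166 did, or 2% (limma, Benjamini-Hochberg adjusted p under 0.05, two-sided, as in every call below). Members with values above saline numbered 41 of 45, with a median log2 fold change of 0.06 against 0.02 over all genes, 45% of which were below saline. The first wild-type paraquat array lay highest, with a median deviation of the members of 0.13 against 0.04 and 0.02 on the other two. Without it the members' median was 0.03, with 33 of 45 above saline, and that of all genes 0.01. Unadjusted p-values were under 0.05 for 2 members. Groups did not overlap, with paraquat above saline, for 10 of 45 members, against 16.6% of all genes.

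Rps4l, annotated by RefSeq as a transcribed pseudogene related to Rps4x, read 8.97, 8.99 and 9.03 on the wild-type saline arrays. It read 9.29, 9.25 and 9.32 on those of wild-type paraquat. Each paraquat pool was above each saline pool, a difference of 0.29 (SE 0.11, limma adjusted p = 0.278). Rps4x itself, the X-linked core protein of the small subunit, differed by 0.06. Rps25, a small subunit protein required for internal ribosome entry on some viral RNAs, read 7.33, 7.51 and 7.45 under saline. Under paraquat it read 7.93, 7.69 and 7.55, again without overlap (0.29, SE 0.12, limma adjusted p = 0.384). A brighter probe set that lists Rps25 with 2 other symbols read 12.10 in wild-type saline and differed by only 0.02. The larger value thus rests on the dimmer probe set. Rps27 and Rpl10a had smaller log2 fold changes of 0.16 and 0.15. Rps6, the substrate of S6 kinase, differed by 0.04, the stalk base Rplp0 by 0.06 and Rpsa, the laminin receptor homolog, by -0.01.

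In knock-out mice no member was called for paraquat against saline, against 188 genes (2.26%). In transgenic mice neither a member nor any other gene was called (0% of genes), with unadjusted p-values under 0.05 for 118 genes and 1 member. Averaged over genotypes, again no member was called, against 407 genes (4.89%). The members' medians were 0.00 in knock-out, 0.02 in transgenic and 0.03 on average, beside medians of -0.09, -0.03 and -0.03 over all genes. When the array that stood apart was left out, the knock-out median of the members was 0.07, with 43 of 45 above saline, and that of all genes 0.01. Leaving out single arrays, the transgenic median ran from -0.02, without the first transgenic paraquat array, to 0.08, without the third, and so had no stable sign. The average ran from 0.01, without the first of these, to 0.05, without the knock-out array that stood apart.

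Single members with the smallest p-values in these fits did not reach the threshold either. Rps4l had the smallest on average over genotypes, at 0.15 (SE 0.06, limma unadjusted p = 0.0224, adjusted p = 0.183). It had 0.13 in knock-out and 0.05 in transgenic. Rps19 had 0.10 in knock-out and Rpsa 0.15 in transgenic. Rpl7l1, a paralog of Rpl7, had log2 fold changes of -0.18 in knock-out, -0.18 in transgenic and -0.14 on average (SE 0.07, limma adjusted p = 0.317). Its other probe set, which was not tested, had -0.41 in wild-type, -0.49 in knock-out, -0.11 in transgenic and -0.34 on average. Rpl12 in knock-out had -0.19, with a range over the 3 paraquat arrays from 6.22 on the second to 6.95 on the third. Rpl27a in transgenic had -0.37 (SE 0.18, unadjusted p = 0.0496, limma adjusted p = 1), and its transgenic groups overlapped.

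Whether the genotype changed the response to paraquat was asked through the difference of the effects. No member was called for the knock-out minus the wild-type effect, nor was any gene (0%), with unadjusted p-values under 0.05 for 148 genes and 0 members. For the transgenic minus the wild-type effect 15 genes (0.18%) and 0 members were called. Rpl27a had a difference of -0.54 (95% confidence interval -1.06 to -0.02, limma adjusted p = 1) and Rps25 of -0.34 (-0.71 to 0.03). Intervals of 37 of 45 members lay within 0.5 of 0 on the log2 scale for the transgenic and of 39 for the knock-out.

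**Figure D2:**
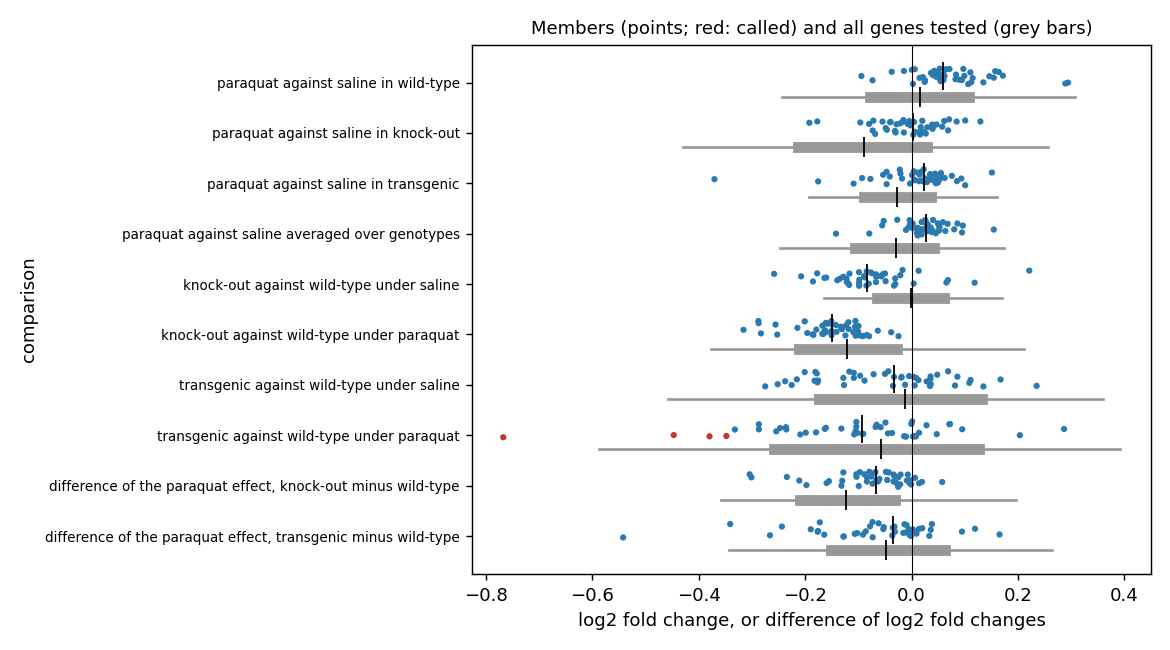
Log2 fold changes of the 45 members (points, called ones in red, black tick at their median) in the 10 comparisons, above grey bars for the 8320 genes tested (thin from the 5th to the 95th percentile, thick between the quartiles, tick at the median). The 4 called members lie in the comparison of transgenic with wild-type under paraquat. Members spread less than all genes, which were not matched to them in level.

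Ribosomal protein genes of the knock-out lay slightly below wild-type under both treatments, with no member called. Under saline 39 of 45 members were below wild-type, with a median of -0.08 against a median of 0.00 over all genes, 50.4% of which were below. The groups did not overlap, with knock-out below wild-type, for 24 of 45 members, against 10.3% of all genes. By array, the median deviation of the members from the wild-type saline mean was -0.12, -0.07 and -0.06 in knock-out saline and from -0.02 to 0.01 in wild-type saline. Only 2 genes were called in this comparison (0.024%), and 1 member had an unadjusted p under 0.05.

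That member was Rpl39, a small basic protein lining the exit tunnel of the large subunit. It read 7.83, 7.78 and 7.83 in wild-type saline and 7.57, 7.55 and 7.54 in knock-out saline. The knock-out pools lay together below all wild-type pools, a difference of -0.26 (SE 0.09, limma adjusted p = 1). A second probe set, which lists Rpl39 with another symbol, was not used for the gene. Rps10 and Rps19, small subunit proteins mutated in human Diamond-Blackfan anaemia, had values of -0.21 and -0.19. Rps25 went the other way with 0.22, its knock-out pools at 7.57 to 7.78 above wild-type pools at 7.33 to 7.51.

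Under paraquat all 45 members were below wild-type in the knock-out, with a median of -0.15, but 79.7% of all genes were as well and the median over all genes was -0.12. One gene was called (0.012%) and no member, although 6 members had unadjusted p-values under 0.05, among 1097 genes. Groups did not overlap, with knock-out below, for 16 of 45 members, against 12.1% of all genes. Leaving out the array that stood apart, 39 of 45 members were below wild-type, and the median was -0.08 for the members and -0.01 for all genes. Rps27l, a p53-inducible paralog of Rps27, had -0.32 (SE 0.13), Rps4l -0.29, Rpl22 -0.28 and Rpl41 -0.25, each with a limma adjusted p of at least 0.366. On the array that stood apart Rps27l read 8.67 and Rpl22 8.99, below every other array.

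The 4 calls among the members were in transgenic against wild-type mice under paraquat, all of them of the large subunit and all lower in the transgenic. They were Rpl27a, Rpl22l1, Rpl4 and Rpl37, or 4 of 45 members, in a comparison where 19% of genes were called and 14.3% were called lower. The members' count is at or below that background, and their median of -0.09 lay beside a median of -0.06 over all genes. Values of 33 members lay below wild-type and of 12 above, and unadjusted p-values were under 0.05 for 10 members below and 1 above. Under saline 529 genes (6.36%) and 0 members were called, with medians of -0.03 for the members and -0.01 for all genes.

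Rpl27a read 7.73, 7.66 and 7.42 on the wild-type paraquat arrays and 7.32, 6.64 and 6.54 on the transgenic paraquat arrays. All transgenic pools were below all wild-type pools, the first by a small margin and the second and the third by more. The log2 fold change was -0.77 (SE 0.18, limma adjusted p = 0.00577), a signal on this probe set 0.588 times that of wild-type. Under saline it read 7.38, 7.55 and 7.35 in wild-type and 7.40, 6.88 and 7.32 in transgenic mice, where the groups overlapped (-0.23, limma adjusted p = 0.474). Knock-out pools read 7.26 to 7.43 under saline and 7.03 to 7.48 under paraquat. A brighter probe set that lists Rpl27a with 4 other symbols had 0.06 in transgenic against wild-type mice under paraquat.

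Rpl22l1, the paralog of Rpl22 that is known to regulate splicing and haematopoiesis, read 12.13, 12.03 and 11.88 in wild-type paraquat. It read 11.80, 11.52 and 11.36 in transgenic paraquat, without overlap (-0.45, SE 0.12, limma adjusted p = 0.0125). Under saline its wild-type pools read 11.90, 11.94 and 11.72 and its transgenic pools 11.76, 11.53 and 11.73, which overlapped (-0.18). Rpl22 itself, which binds RNA hairpins, had -0.09 under paraquat and 0.08 under saline, and the difference between the paralogs was not tested.

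Rpl4, whose long loop reaches into the exit tunnel, read 12.72, 12.66 and 12.72 in wild-type paraquat and 12.24, 12.46 and 12.36 in transgenic paraquat. Its groups were apart under both treatments. The log2 fold change was -0.35 (SE 0.10, limma adjusted p = 0.0166) under paraquat. Under saline the wild-type pools read 12.65, 12.63 and 12.56 and the transgenic pools 12.41, 12.24 and 12.36 (-0.27, SE 0.10, limma adjusted p = 0.0908). Rpl4 was thus below wild-type by a similar amount with or without paraquat, and the saline value did not pass the test.

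Rpl37, a zinc-finger protein of the large subunit, read 9.61, 9.42 and 9.37 in wild-type paraquat and 9.26, 9.18 and 8.82 in transgenic paraquat. The groups were apart, and the third transgenic pool was the lowest (-0.38, SE 0.12, limma adjusted p = 0.0327). Under saline the values were 9.48, 9.40 and 9.19 in wild-type and 9.24, 9.05 and 9.13 in transgenic mice, with overlap (-0.22). Rpl7, an RNA-binding protein of the large subunit, lay just outside the threshold with -0.29 (limma adjusted p = 0.0518).

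**Figure D3:**
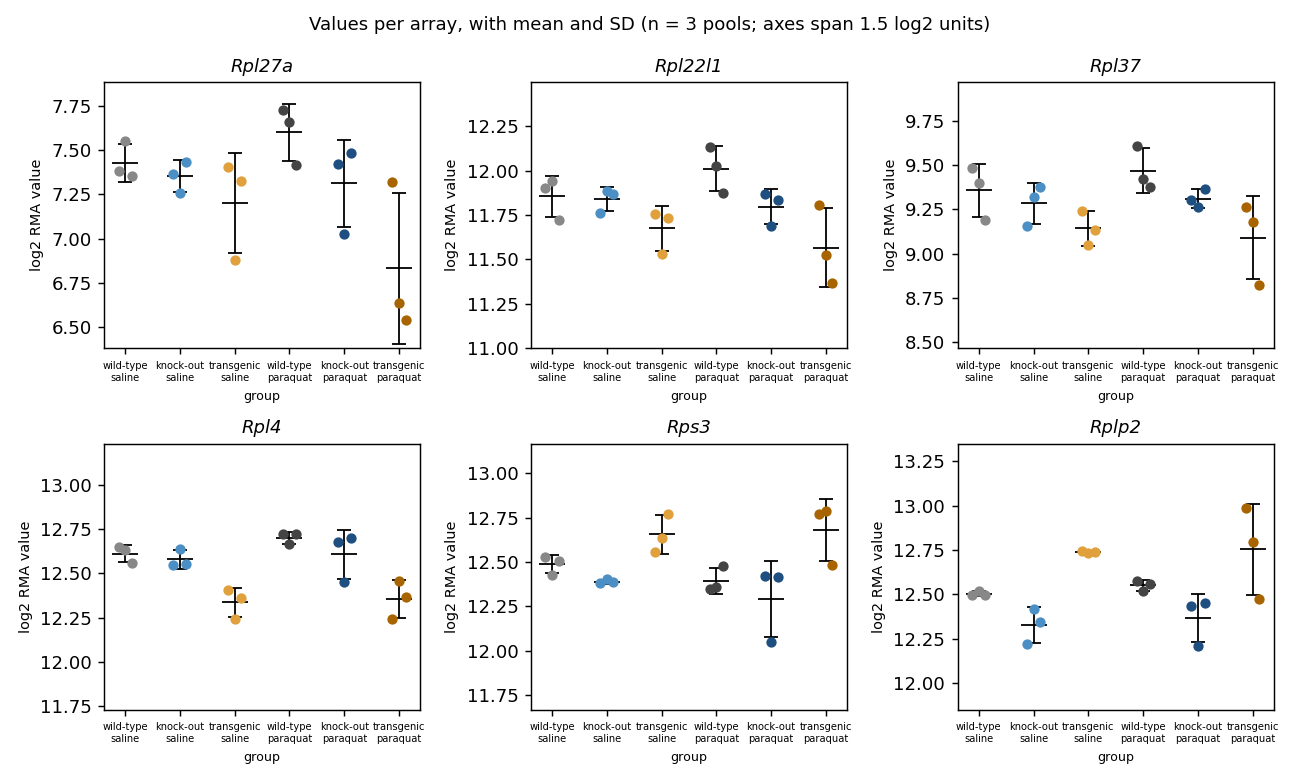
Log2 values of the 4 called members and of Rps3 and Rplp2 on each array (points), with the group mean and SD (black, n = 3 pools), each axis spanning 1.5 log2 units. Under paraquat the transgenic pools lie below all wild-type pools for the 4 called members and above them for Rps3.

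A few members had higher values in transgenic mice, none of them called. Rps3, which lines the mRNA entry site and also acts in DNA repair, was chosen after its values were seen. It read 12.35, 12.36 and 12.48 in wild-type paraquat and 12.77, 12.79 and 12.48 in transgenic paraquat, where the third transgenic pool lay next to the highest wild-type pool (0.29, SE 0.11, limma adjusted p = 0.081). Rplp2, an acidic stalk protein that recruits elongation factors, read 12.50, 12.52 and 12.49 in wild-type saline and 12.74, 12.73 and 12.74 in transgenic saline (0.23, limma adjusted p = 0.212). Under paraquat its transgenic pools spread from 12.48 to 12.99 and overlapped wild-type (0.20). Rplp0, the other stalk protein measured, differed by 0.13 and 0.03.

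The calls depended on single arrays. Without the third transgenic paraquat array 4 members were called, 2 lower (Rpl27a and Rpl4) and 2 higher (Rps3 with 0.39, limma adjusted p = 0.0335, and Rplp2 with 0.34, limma adjusted p = 0.0378), and the median of the members was -0.02. Leaving out the knock-out array that stood apart, which enters only through the shared estimate of the spread, 11 members were called, 10 lower and Rps3 higher. Without the first wild-type paraquat array the call on Rpl27a alone was left, and without the first transgenic paraquat array 6 were called, all lower. These counts are not set beside the share of all genes called in the same fits, and so do not set the members apart. On the third transgenic paraquat array the members' mean was 11.27, against 11.42 and 11.50 on the other two, its 18S control read 6.20, and the 3′ probe set of pyruvate carboxylase, a labelling control, exceeded the 5′ probe set by 1.95, against 2.63 and 2.88 on the other two. Their part in the result was not tested.

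Markers of other cells also differed between transgenic and wild-type mice in the same comparison, where 19% of all genes were called and 14.3% were called lower. Under paraquat 2 of 5 astrocyte and 3 of 3 tested endothelial markers were higher in the transgenic. Lower were 3 of 4 fibroblast, 1 of 4 microglial and 1 of 3 choroid plexus markers. Under saline, where 6.36% of all genes were called, 3 of 3 choroid plexus and 3 of 4 fibroblast markers were lower and 1 of 5 astrocyte markers was higher. The choroid plexus list spread from 7.23 to 8.92 over the transgenic saline pools. The choroid plexus list had a mean of 8.46 to 9.68 in transgenic and 9.87 to 9.93 in wild-type paraquat, and the fibroblast list 7.48 to 7.69 and 7.97 to 8.14. The astrocyte list had 10.66 to 10.71 and 10.37 to 10.54, and the endothelial list 7.38 to 7.75 and 7.07 to 7.21. No marker of granule neurons, Purkinje neurons, oligodendrocytes, erythrocytes or leukocytes was called, of which Hba-a1, Slc4a1, Ptprc, S100a8 and S100a9 were below the filter. Their part in the values of the ribosomal protein genes was not tested.

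Across the members, transgenic against wild-type values under saline and under paraquat rest on separate arrays. Both values were below 0 for 24 members and above 0 for 9, the same sign in 73.3%, against 78.8% of all genes. Pearson's r over the 45 members was 0.73 and Spearman's rho 0.76, beside 0.76 and 0.76 over all genes. The points share probe sets and replicate numbers whose control probes deviated alike, so these are descriptions. For the knock-out both values were below 0 for 39 members and above 0 for none. All 45 members were below 0 under paraquat. The same sign in 86.7%, against 56.2% of all genes, thus only restates the 39 below 0 under saline. Over the members r was 0.46 and rho 0.51, beside 0.42 and 0.35 over all genes, and the array that stood apart enters the knock-out values under paraquat. Knock-out and transgenic comparisons share the wild-type arrays.

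**Figure D4:**
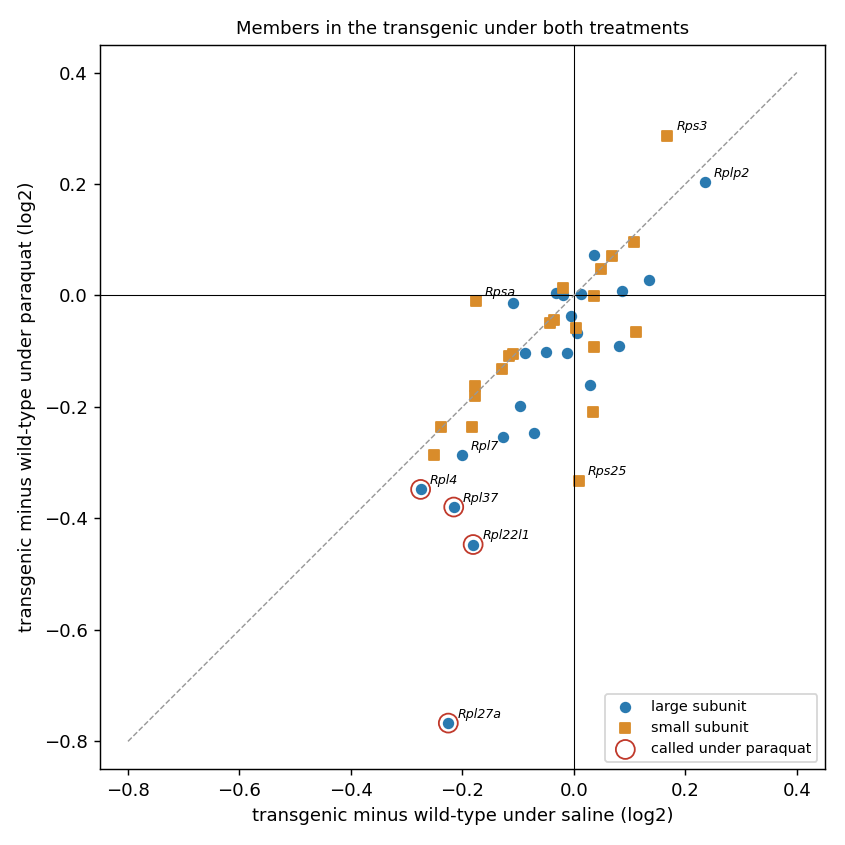
Transgenic minus wild-type log2 values of the 45 members under saline (horizontal) and paraquat (vertical), with circles for the large and squares for the small subunit, rings for called members and a dashed line of equality. Most members lie near the line. Rpl27a, Rps25, Rpl22l1 and Rps4l lie furthest below it and Rpsa furthest above it. Rpl37 is nearer to the line than Rpl12, Rps27l, Rpl6 and Rpl22, which were not called. Rps3 and Rplp2 are highest.

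Other paralogs did not separate from their core genes by a call. Rps27l had values of 0.11 and -0.07 in transgenic against wild-type mice under saline and paraquat, and Rps27 of 0.04 and -0.09. A brighter probe set that lists Rps27 with another symbol, not used for the gene, had -0.23 and -0.35. Differences between paralogs were not tested. Rps4x had -0.18 and -0.24, and Rps4l 0.03 and -0.21. Rpl7l1 had -0.10 and -0.20. Rpl39l and Rpl3l, which are known from testis and from muscle, stayed below the filter with means of 4.12 and 4.64.

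Probe sets of a gene did not always give the same value. Of 48 members 25 had 1 probe set, among them Rpl22l1, Rpl4 and Rpl37. Probe sets of 12 members, that of Rpl37 included, are of the x_at type, whose probes can match other transcripts. The second probe set of Rpl27a lay below the filter, at 3.94 to 4.35 on the 18 arrays, and its transgenic value under paraquat was 0.22. Among probe sets above the filter, the probe set used for Rpl27 had 0.00 in transgenic against wild-type mice under paraquat, and its other 2 had -0.46 and -0.31. Rps9, an early-binding protein of the small subunit, had 0.10 on the probe set used and -0.30 on the other above the filter. Rpl7l1 had -0.20 and 0.20. Rps24, another gene of human Diamond-Blackfan anaemia, had -0.16 on the probe set used and -0.37 to -0.31 on its other 3 above the filter. Rpl35, a protein near the tunnel exit, was chosen after its values were seen. All 5 of its probe sets above the filter were below wild-type, from -0.32 to -0.16. A further probe set below the filter had -0.13.

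Probe sets that list a member beside other symbols, and so cannot be assigned, gave mixed values for the called genes. One that lists Rpl27a with 4 other symbols had -0.02 under saline and 0.06 under paraquat, unlike the -0.77 of the probe set used. In wild-type saline it read 12.66, against 7.43 on the probe set used. The 3 that list Rpl37 with another symbol had -0.56, -0.06 and -0.21 under paraquat. For Rpl39, a probe set listing another symbol as well had -0.33 where the one used had 0.01. In wild-type saline the brightest such probe set read 3.85 to 6.25 log2 units above the one used for 8 members. These were Rpl12, Rpl14, Rpl27a, Rpl37, Rpl39, Rps25, Rps27 and Rps6, whose values here rest on a dimmer probe set.

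Other genes of the translation machinery were read from lists chosen beside the members. Ribosome biogenesis factors included 5 lower and 1 higher of 35 tested in transgenic against wild-type mice under paraquat, with a median of -0.12. Over all genes 14.3% were called lower and 19% either way there, so the counts of this list and of those that follow are read against that background, and none was tested for a difference from it. The box C/D snoRNP protein Nop58 was lower by 0.78 on the log2 scale (log2 fold change -0.78, limma adjusted p = 0.00184), the nucleolar GTPase Gnl3 had -0.67 (limma adjusted p = 0.000291) and nucleolin, Ncl, -0.65 (limma adjusted p = 0.00688). The RNA polymerase I factor Ubtf was higher by 0.35. Under saline 4 were lower, among them Nop58 with -0.70, Ncl with -0.67 and Gnl3 with -0.48.

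Of 25 initiation factors 2 were lower under paraquat, Eif5 with -0.50 and Eif2s2, a subunit of the factor that delivers initiator tRNA, with -0.44, which was also lower under saline with -0.46. Among 8 elongation and termination factors the release factor Etf1 had -0.61 and the rescue factor Hbs1l -0.37, and Eef1a2, the elongation factor of neurons and muscle, was higher by 0.34. Among 17 other TOP mRNAs Hnrnpa1 (-0.47) and Naca (-0.30) were lower. Eef1a1, Eef2 and Tpt1, classic TOP mRNAs, differed by 0.01, 0.17 and 0.09 and were not called. For paraquat averaged over genotypes 1 of the 17 was called, the elongation factor subunit Eef1d, higher by 0.36 (limma adjusted p = 0.00759). Of 10 ribosome-associated factors 3 were lower, Serbp1 with -0.51, Dnajc2 with -0.48 and Naca.

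A few genes around mTORC1 were called for paraquat. In wild-type mice 2 of 15 were, against 2% of all genes, Ddit4 with 1.28 (limma adjusted p = 0.045) and Sesn1 with 0.45 (limma adjusted p = 0.0256), both stress-induced inhibitors of mTORC1 and both higher under paraquat. The list's median was 0.04 there, and 0 of 15 were called in knock-out and 0 in transgenic mice. Averaged over genotypes 3 were higher, against 4.89% of all genes called, with Eif4ebp1, a repressor of cap-dependent translation, at 0.37, Ddit4 at 0.66 and Sesn1 at 0.23. In transgenic against wild-type mice under paraquat Ddit4 had -1.76 (limma adjusted p = 0.00142), Sesn1 -0.59 and Sesn3 -0.42, and Eif4ebp2 was higher by 0.52, or 3 lower and 1 higher of 15. Fau, a ribosomal protein gene whose symbol is outside the rule, differed by 0.03 with paraquat in wild-type mice and by 0.02 in transgenic against wild-type mice under paraquat.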

How the data were processed

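The deposited log2 values, 1 per probe set and array, were made by the authors with RMA, per the submitters' processing notes, without a version. RMA corrects background, normalises quantiles and summarises probes. Values ran from 3.13 to 14.91, which gave the scale, and which arrays were normalised together is not given in the sources used here. Of 22690 probe sets 64 were controls, and the platform annotation gave 1 symbol to 20380, several to 691 and none to 1555. The probe set with the highest mean stood for a gene. Genes at or above an array's 40th percentile on 3 or more arrays were tested, 8320 in all. Means of the 6 groups were fitted to all 18 arrays in limma 3.58.1 (R 4.3.3, lmFit and eBayes, 12 residual degrees of freedom), and p-values were adjusted by Benjamini-Hochberg over all genes tested. A permutation test of 3 against 3 pools cannot pass the threshold and was not used. Precision is limited by the number of arrays. The fit was tested on simulated data. Promoters came from RefSeq.

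Deviations of same-numbered saline and paraquat arrays correlated by 0.16, 0.13 and 0.42 in transgenic, 0.09, 0.15 and 0.34 in wild-type and -0.09, -0.28 and -0.12 in knock-out mice. Not every pair exceeded 0.1, so the numbers were not taken as pairs. Alternatives changed the normalisation, filter, probe set rule, array weights, arrays fitted and each array left out. Named were called members, members with the smallest p-values, the most and least variable, paralogs, Rplp0, Rplp2, Rpsa and Rps6, members whose probe sets disagreed, and up to 3 called genes each way per other list. The members and lists were chosen with earlier results of these data known.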

Additional observations from a re-analysis of the deposited data

Results flagged for a closer look

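Ribosomal protein probe sets that list several symbols were outside the main comparison. They numbered 102, of which 91 passed the filter when kept in the fit beside the genes. In transgenic against wild-type mice under paraquat 12 of them were called lower and 0 higher (13.2%, against 18.9% called either way of all rows in that fit), with a median log2 fold change of -0.17. Under saline 3 were called lower and 0 higher (3.3%, against 6.35%). In the other 8 comparisons none was called. Chosen after the values were seen, a probe set that lists Rpl5 with a pseudogene of it had -1.02 under paraquat (limma adjusted p = 4.96e-05) and -0.81 under saline (limma adjusted p = 0.00131), and a second with the same listing had -0.63 and -0.39. One that lists Rpl23 with 2 other symbols had -0.50 and -0.56. Which of the listed transcripts these probe sets read cannot be told apart.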

How the results depend on the processing

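Of 518 values of counts and medians under 26 settings, 491 kept their place and 27 moved. How far a value could shift and still keep its place is not given here, so the 491 do not measure robustness. Some medians changed sign, among them that of paraquat against saline in transgenic mice, from -0.01958 to 0.07631 with arrays left out. A turn of direction with a call was looked for only among the 5722 values of named members, where 0 turned. The count of members called in transgenic against wild-type mice under paraquat was 7 after another quantile normalisation, 9 with array medians aligned (chosen after seeing the data), 15 with array weights and 1 (Rpl27a) of 14 members with plain probe sets only, and 1 to 11 with single arrays left out. Under saline it was 1 after quantile normalisation, with the mean of all probe sets and with medians aligned, 15 with array weights, and 0 to 1 with arrays left out. Array weights gave 2 calls for paraquat in wild-type, 2 in knock-out, 1 in transgenic, 10 on average and 1 for the knock-out under saline. A fit of only the groups compared gave 1 in wild-type (Rps4l) and 1 for the knock-out under saline (Rpl39). With arrays left out the average over genotypes gave 0 to 1, the second value without the third transgenic saline array. The share of all genes called is not given beside these counts, so they do not set the members apart from other genes.

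The knock-out median under paraquat was -0.03851 after quantile normalisation. The median of the knock-out difference of effects was -0.06643 in the main fit. It was 0.02158 after quantile normalisation and 0.02827 with array weights, and -0.1084 to 0.0192 with arrays left out. That of the transgenic difference was -0.0352 in the main fit and -0.09965 to 0.02355 with arrays left out. Neither median kept its sign. With plain probe sets the transgenic median under saline was 0.001117 and that of the difference of effects -0.1045. The saline median ran from -0.06184 to -0.02503 with arrays left out.

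Rpl27a was called under the 25 alternatives that tested it, with limma adjusted p up to 0.033, and fell below the filter with the mean of all probe sets. Rpl22l1 was called under 23 (up to 0.0666), Rpl4 under 22 (up to 0.0629) and Rpl37 under 20 (up to 0.163). The cause of these changes was not tested. For Rpl27a these calls say nothing on the probe set that lists it with 4 other symbols, which had 0.06. With a replicate block, 4 members were called in transgenic against wild-type mice under paraquat and 0 elsewhere. That block is a shift per replicate number common to all 6 groups. It cannot represent pairs of saline and paraquat arrays that differ between genotypes, so the effect of such pairing was not tested.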
